A study of Mus musculus with 12 samples.

Results

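The type I interferon response was followed through 9 genes: Ifit1, Ifit2, Ifit3, Isg15, Irf7, Oasl2, Rsad2, Cxcl10 and Ifi27. They were found by their gene symbol, and all 9 of 9 were among the 24421 entries measured in immortalized mouse embryonic fibroblasts (MEFs). In fetal liver 8 of the 9 were among 23235 entries, without Ifi27. The study compared wild-type (WT) mouse cells and tissue with cells and tissue carrying G2A, an allele of Rpt2 (gene Psmc1), an ATPase subunit of the 26S proteasome. As background, G2A replaces the glycine that receives the lipid myristate at the start of Rpt2. RNA sequencing covered livers of WT and G2A littermates at E12.5, with 3 samples of each genotype, and immortalized MEFs, with 3 WT and 3 G2A samples on the labels. The third G2A MEF sample was not analysed here, which left 11 libraries. No sample was treated, so no library was given interferon by the labels. The labels leave out strain, sex and how the MEFs were immortalized, and do not say whether MEF samples were separate lines, clones or cultures. The p-values below therefore measure the spread between these samples, which for the MEFs may be technical.

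As background, type I interferons are secreted proteins that cells make when sensors such as RIG-I, MDA5 or cGAS meet foreign or misplaced nucleic acid. They bind the receptor Ifnar1-Ifnar2, whose kinases Jak1 and Tyk2 activate transcription factors such as Stat2. Stat2 and its partner Irf9 act in a complex that binds the interferon-stimulated response element (ISRE) in the promoters of many target genes. Ifit1, Ifit2 and Ifit3 bind viral RNA or the translation machinery, Isg15 is a ubiquitin-like protein joined to other proteins, and Oasl2 belongs to the oligoadenylate synthetase family. Rsad2 (viperin) is an antiviral radical enzyme, Ifi27 is a small membrane protein, and Irf7 is the transcription factor that amplifies interferon production. Cxcl10 is a chemokine that attracts T cells and is induced by both interferons and NF-kappaB.

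The promoter sequences were searched near the gene start for the letters of an ISRE core and a kappaB motif. Windows from 250 bases before to 50 bases after the gene start were taken from RefSeq on GRCm38.p6, and 8 of the 9 genes had one (Ifi27 did not); Ifit2 had 2. An ISRE core, spelled as GAAA, any 2 bases and GAAA, or TTTC, any 2 bases and TTTC for the opposite strand, was present in 5 of the 8 genes, namely Cxcl10, Ifit1, Ifit3, Isg15 and Rsad2. Across 32851 windows of the same length it was present in 1131, or 3.44%. A kappaB motif, spelled as GGGA, any base, TT, any base and CC on either strand, was present in 1 of the 8 genes, Cxcl10, and in 394 windows (1.2%). The letters of neither motif were found in the windows of Ifit2, Irf7 and Oasl2. The 250 bases before the Cxcl10 start are shown whole because Cxcl10 was the gene that held both motifs; for the 4 other genes 30 bases around each ISRE core are given, 5′ to 3′ in the direction of the gene, with motif matches in capitals.
Cxcl10, minus strand, chr5:92348890-92349139, ISRE core 213 and kappaB 103 bases before the start: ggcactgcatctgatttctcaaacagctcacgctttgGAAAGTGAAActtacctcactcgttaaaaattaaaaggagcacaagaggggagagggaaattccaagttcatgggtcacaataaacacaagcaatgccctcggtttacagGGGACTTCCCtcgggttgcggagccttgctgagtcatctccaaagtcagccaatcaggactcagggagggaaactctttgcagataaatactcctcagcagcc
Ifit1, plus strand, chr19:34640775-34640804, 104 bases before the start: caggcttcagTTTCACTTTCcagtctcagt
Ifit1, plus strand, chr19:34640794-34640823, 85 bases before the start: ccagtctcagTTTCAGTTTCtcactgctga
Ifit3, plus strand, chr19:34583363-34583392, 156 bases before the start: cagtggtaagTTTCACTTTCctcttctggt
Ifit3, plus strand, chr19:34583397-34583426, 122 bases before the start: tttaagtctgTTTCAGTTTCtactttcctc
Isg15, minus strand, chr4:156200871-156200900, 78, 72 and 66 bases before the start: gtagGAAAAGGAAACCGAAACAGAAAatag
Rsad2, minus strand, chr12:26456553-26456582, 120 bases before the start: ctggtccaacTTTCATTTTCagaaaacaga
Isg15 held 3 overlapping matches, which form 1 run of capitals in its line. Ifit1 and Ifit3 each held 2 cores, TTTCACTTTC followed by TTTCAGTTTC in both genes. Among other interferon-stimulated genes, a list described below, 27 of 57 windows (47.4%) held the core. Among NF-kappaB target genes 8 of 19 windows (42.1%) held the kappaB motif. A match is a description of the sequence, and binding was not measured. An element spelled otherwise or outside the window would be missed. A window without a match therefore does not show that a gene lacks the element.

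In NCBIM37, the build which corresponds to mm9, all members with an annotated position were protein coding. Ifit2 (chromosome 19, 34625184 to 34650909), Ifit3 (34658021 to 34663221) and Ifit1 (34715361 to 34724499) lie together on the plus strand. Cxcl10 lies on the minus strand of chromosome 5 (92775664 to 92777915) and Oasl2 on its plus strand (115346943 to 115362243). Isg15 (chromosome 4, 155573533 to 155574927), Irf7 (chromosome 7, 148448605 to 148452380) and Rsad2 (chromosome 12, 27127618 to 27141317) lie on the minus strand. Values are per gene, so exons, introns and UTRs were not told apart.

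MEF values are gene reads divided by 1 size factor per library, called normalized reads here; they are not divided by gene length, so levels are compared between libraries and not between genes. The 5 MEF libraries held 36415586 to 37695116 gene reads. Liver values are FPKM (fragments scaled by transcript length and library size), whose read depth is unknown. One library stood apart in MEFs. Over 13241 genes, WT 3 differed from WT 1 and WT 2 by a root mean square of 1.46 and 1.57 log2 units, and from G2A 1 and G2A 2 by 0.89 and 0.86. WT 1 and WT 2 differed from each other by 0.60. The library labelled WT 3 was thus nearer to the G2A libraries than to the other WT libraries over all genes. G2A is a change within the Rpt2 protein, so a level per gene does not check the label of WT 3. The limma results of the members tested in MEFs are therefore given with and without WT 3. Fibroblast genes were abundant in every MEF library (Col1a1, 147435 to 367214 normalized reads), and the hepatoblast genes Afp and Alb were abundant in every liver library (4523 to 6966 and 2480 to 4150 FPKM).

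In MEFs, 7 of the 9 interferon response genes were high in WT 3 and low in the other 4 libraries; Ifit2 and Ifi27 were expressed in all 5. Ifit1 held 82.4, 69.9 and 7527 normalized reads in WT 1 to 3, and 165 and 105 in G2A 1 and 2. Ifit3 held 111, 31.3 and 5698 in WT, and 124 and 91.2 in G2A. For both genes WT 3 was the one high library, 45.7 and 45.9 times the next highest. Ifit3b, a close copy of Ifit3, held 2006 normalized reads in WT 3 and 13.6 to 47.3 in the others; how reads were divided between the 2 genes is not given in the sources used here, so the level of each is uncertain. Ifit2 differed from its neighbours: it held 1836, 1258 and 2772 normalized reads in WT, and 1739 and 1445 in G2A. All 5 libraries expressed Ifit2, and WT 3 was 1.51 times the next highest.

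Isg15, the ubiquitin-like protein, held 78.3, 73.1 and 6109.6 normalized reads in WT, and 69.0 and 58.8 in G2A. Both G2A libraries were below all 3 WT libraries, by a small margin for WT 1 and WT 2. The same held for Ifi27, so 2 of 8 members were lower without overlap and 0 higher, beside 18% of all genes lower and 18.9% higher. Oasl2 held 9.27, 0 and 12111 in WT, and 19.7 and 32.4 in G2A, so that WT 3 was 374 times the next highest library. Rsad2 had 373 reads in WT 3 and 0 in each of the other 4 libraries. Against a floor of 3 reads per library, which covers counting error only, WT 3 was at least 112-fold higher. Irf7, the regulator in the group, held 38.1, 28.2 and 6357 normalized reads in WT, and 30.6 and 45.1 in G2A. WT 3 was 141 times the next highest library, and the G2A values lay across those of WT 1 and WT 2. Cxcl10 held 60.8, 176 and 2737 normalized reads in WT, and 307 and 215 in G2A. WT 3 was again highest, at 8.92 times G2A 1, and both G2A libraries were above WT 1 and WT 2.

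**Figure D1:**
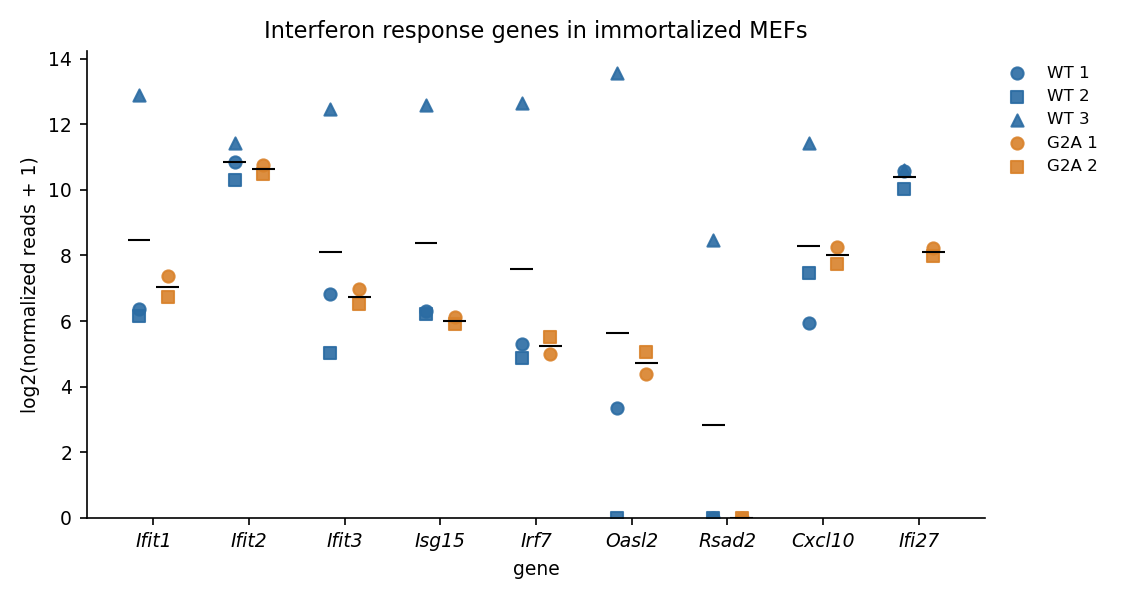
Level of the 9 genes in each of the 5 MEF libraries, as log2(normalized reads + 1) on the vertical axis; each point is 1 library and each horizontal tick the group mean of the log2 values. WT 3 stands far above the other libraries for Ifit1, Ifit3, Isg15, Irf7, Oasl2, Rsad2 and Cxcl10, while Ifi27 is lower in both G2A libraries than in all 3 WT libraries.

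Ifi27 followed another pattern. It held 1537, 1033 and 1564 normalized reads in WT, and 300 and 250 in G2A. The groups did not overlap, and WT 3 lay beside WT 1, at 1.02 times its level. The mean was 1378 ± 299 in WT (SD, n = 3) and 275 ± 35.2 in G2A (SD, n = 2). On the log2(value + 1) scale Ifi27 was 2.30 lower in G2A (log2 fold change -2.30, SE 0.24, 95% interval -2.91 to -1.69), with an adjusted p of 0.21 in limma. Without WT 3 the log2 fold change was -2.20, with an adjusted p of 0.0032. In that fit 3075 of 13241 genes (23.2%) passed the threshold of 0.05, so Ifi27 was 1 of many.

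With all 5 libraries, 0 of the 8 genes tested passed the threshold in limma, against 0 of 13241 genes (0%), and edgeR also called 0 members and 0 genes. At an unadjusted p under 0.05, limma had 1 member, Ifi27, beside 913 genes higher and 990 lower; edgeR had the same number of members beside 819 and 1023. Rsad2 was not tested because 1 library reached the minimum of 10 normalized reads and the filter asked for 2. Leaving out Ifi27, the 7 log2 fold changes ran from -2.35 (Isg15) to -0.23 (Ifit2), with adjusted p from 0.613 to 0.947. Their standard errors reached 3.97 log2 units for Oasl2, since the WT mean of that gene was set by WT 3. edgeR, which works from group mean reads, gave larger values, from -7.27 (Oasl2) to -0.30 (Ifit2), and none passed.

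Without WT 3 the sign turned for 6 of the 8 genes. The log2 fold change became 1.30 for Cxcl10, 0.83 for Ifit3, 0.78 for Ifit1, 0.17 for Irf7 and 0.06 for Ifit2. It became 3.04 for Oasl2, which among these 4 libraries reached the minimum of 10 normalized reads only in G2A, so the filter partly set that value. Isg15 stayed lower, at -0.24. None of these 7 passed (adjusted p from 0.112 to 0.852 in limma), and each comparison then rests on 2 libraries per group. The G2A libraries were above WT 1 and WT 2 for Ifit1 and Cxcl10, and for Oasl2 with the limit just given, and below them for Isg15 and Ifi27. Of all genes, 34.6% were higher and 33.1% lower without overlap in the same 4 libraries. Mean levels then differed by 1.77-fold for Ifit1 and 2.198-fold for Cxcl10. The 5.62-fold ratio of Oasl2 came from means of 4.64 and 26.04 normalized reads.

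**Figure D2:**
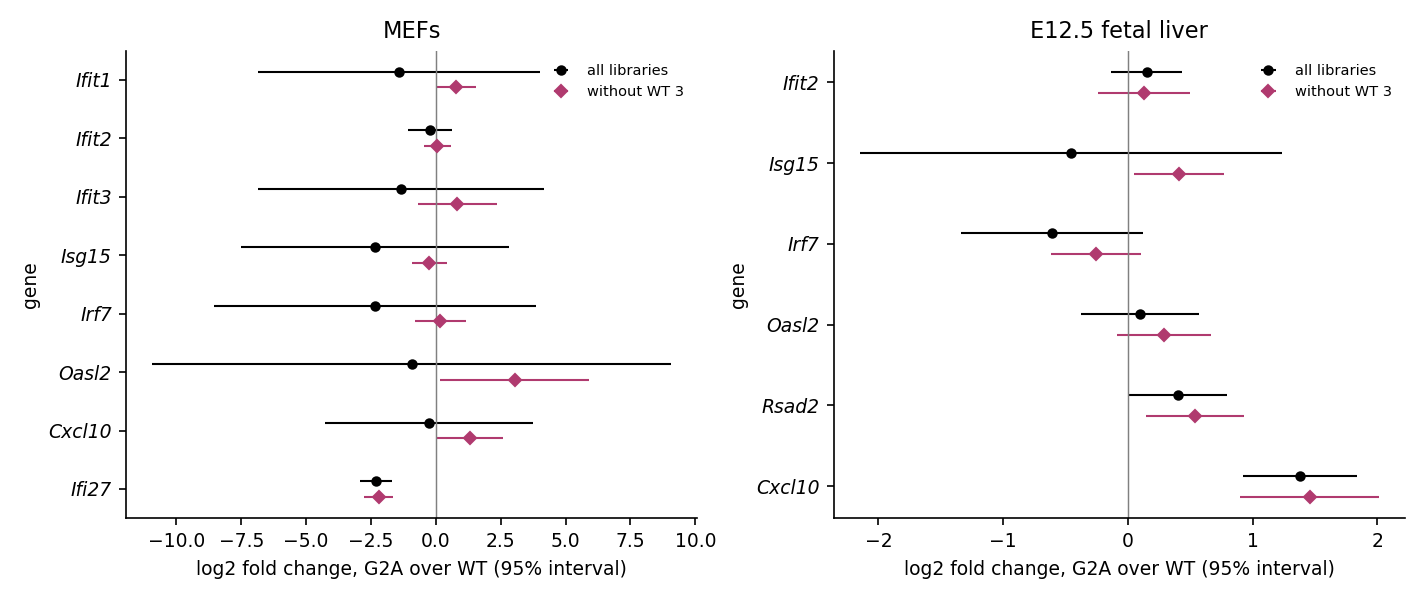
Log2 fold change of G2A over WT with its 95% interval from limma, for the 8 genes tested in MEFs and the 6 tested in liver; black circles use all libraries and magenta diamonds leave out WT 3 of that tissue. In MEFs the intervals of 7 genes cross 0 with all libraries and Ifi27 lies at -2.30; in liver Cxcl10 lies at 1.38.

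How far WT 3 stood out was described by a fold of 8 over the next highest library, chosen after the values were seen. WT 3 passed it for 6 of the 8 genes tested, against 71 of 13241 genes (0.536%); each of the other 4 libraries passed it for 0 genes. Of those 71, 34 were members or genes of the 5 pathway lists below, out of 105 tested. WT 3 was the highest library for 8 of 8 members and for 40 of 41 other interferon-stimulated genes, beside 29.2% of all 13241 genes. Some of the 41 passed the filter only with WT 3, as described below.

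The pathway upstream of these genes was examined through its ligands, receptors and sensors. Of 19 interferon ligand genes measured in MEFs, 15 had 0 reads in every library. Ifnb1 had 4 reads and Ifna4 2 reads, all in WT 3. Ifnz had 2 reads in WT 2 and 3 in WT 3, and Ifne had 2, 2 and 1 reads in WT 3, G2A 1 and G2A 2. Counts of this size, in genes with close copies, do not show a difference between libraries. Both chains of the type I receptor were expressed in every library: Ifnar1 held 2902 to 3266 and Ifnar2 1538 to 1680 normalized reads over the 5 libraries.

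Downstream of the receptor, Stat2 held 1676, 1040 and 8524 normalized reads in WT, and 558 and 582 in G2A. Irf9, its partner, held 749, 663 and 6000 in WT, and 697 and 648 in G2A. Both genes were highest in WT 3. Usp18, a feedback inhibitor that removes Isg15 from proteins, held 29.9, 18.8 and 3971 in WT, and 61.1 and 63.7 in G2A. Of the 17 receptor and signalling genes tested, 0 passed with all libraries (median log2 fold change -0.27, against 0.02 over all genes tested). Without WT 3, 1 was higher and 3 were lower in G2A, 4 of 17 in all, a share near the 23.2% of all genes called in that fit. Stat2 was among the latter, at a log2 fold change of -1.21 (adjusted p = 0.0198 in limma; -2.11 and 0.365 with all libraries). Ifngr2, a chain of the interferon gamma receptor, was the higher one, at 0.47 (adjusted p = 0.0297; 0.42 and 0.286 with all libraries).

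Among 25 sensors and inducers of interferon, 0 passed with all libraries (median -0.11). Without WT 3, 4 were higher and 2 lower in G2A, 6 of 25 in all, a share near the 23.2% of all genes in that fit. Tmem173, which encodes the DNA-sensing adaptor Sting, held 1117, 1001 and 1358 normalized reads in WT, and 2149 and 1768 in G2A. Its G2A libraries lay above all 3 WT libraries (log2 fold change 0.76, adjusted p = 0.269 in limma; 0.88 and 0.0104 without WT 3). Rnaseh2a, a subunit of the enzyme that removes ribonucleotides from DNA, held 1008, 1171 and 992 in WT, and 1473 and 1494 in G2A (0.49, adjusted p = 0.279; 0.45 and 0.0463 without WT 3). The RNA sensors of the list were highest in WT 3, except Tlr7. Ddx58 (RIG-I) held 5942 normalized reads in WT 3 and 390 to 715 elsewhere, and Ifih1 (MDA5) 2716 and 122 to 238. Dhx58 held 1868 in WT 3 and 45.4 to 71.1 elsewhere, and Tlr3 712 and 10.3 to 89.7. Tlr7, an endosomal RNA receptor, was low in every library, at 9.40 in WT 3 and 19.6 to 28.6 elsewhere. WT 3 was over 8 times the next highest library for 3 of these 25 genes and for 2 of the 17 receptor and signalling genes.

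Other interferon-stimulated genes were also high in WT 3. Of 41 tested in MEFs, 23 were over 8 times higher in WT 3 than in any other library, beside 71 of 13241 genes (0.536%). Some of them, such as Iigp1, Oasl1 and Cmpk2, needed WT 3 to reach the minimum of 10 normalized reads in 2 libraries, so the filter partly set this count. With all libraries 0 passed the test, with a median log2 fold change of -1.07 (members, -1.39). Without WT 3 the median was 0.54 for this list, 0.48 for the members and 0.01 for all genes tested. Among the libraries then left, Gbp2, Oas1a, Cmpk2, Cd274 and Ifi47 reached 10 normalized reads only in G2A, and Iigp1, Oasl1 and Ifi27l2a only in WT. The filter thus partly set the median and the counts of this list. In that fit 7 of the 41 were higher and 2 lower in G2A, 9 in all, again near the 23.2% of all genes. Znfx1, an RNA helicase-like antiviral factor, was one of those lower, at 1491, 1551 and 2644 normalized reads in WT, and 745 and 875 in G2A (log2 fold change -1.18, adjusted p = 0.269 in limma; -0.91 and 0.00738 without WT 3). Ifi27l2a, a relative of Ifi27, held 41.2, 9.40 and 1097 in WT, and 0 and 3.92 in G2A (-5.14, adjusted p = 0.352; -3.24 and 0.0825 without WT 3). Ifi27l2a reached the minimum of the filter only in WT libraries, so the filter partly set its lower G2A level. Both Ifi27 and Ifi27l2a were below every WT library in both G2A libraries, with that limit for Ifi27l2a. Ifi27 itself reached the minimum in every library.

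Genes whose profile over the 5 MEF libraries lay nearest to the members' mean profile were Irgm2, Oas1b, Igtp, Nlrc5 and Bst2. Their root mean square distances were 0.212 to 0.355 log2 units, where the mean profile itself spanned 5.95. All 5 are on the list of other interferon-stimulated genes. Bst2 (tetherin), a membrane protein that holds budding viruses, held 666, 671 and 20554 normalized reads in WT, and 1058 and 834 in G2A. Isg15 was the member with the most negative log2 fold change, and Oas1b, Rtp4 and Irgm2 lay nearest to its own profile (0.46 to 0.61).

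Of 14 NF-kappaB target genes tested, 0 were over 8 times higher in WT 3, and their mean log2 level in WT 3 was 0.09 above the mean over libraries, against 4.29 for the members. That mean combined opposite differences, and WT 3 was highest for 5 of the 14, beside 29.2% of all genes. Ccl2 held 1149 normalized reads in WT 3 and 182 to 277 elsewhere, and Ccl7 979 and 137 to 424. Cxcl5 held 37.6 in WT 3 and 58.2 to 2300 elsewhere, and Cxcl1 30.1 and 53.3 to 125. Vcam1, an adhesion molecule, held 736, 506 and 2611 normalized reads in WT, and 3763 and 3541 in G2A (log2 fold change 1.88, adjusted p = 0.33 in limma; 2.58 and 0.00126 without WT 3). Ptgs2, a prostaglandin synthase, held 2592, 5168 and 5158 in WT, and 7792 and 10437 in G2A (1.14, adjusted p = 0.301; 1.30 and 0.0433 without WT 3). Without WT 3, 3 of the 14 were higher and 2 lower, beside 23.2% of all genes called.

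**Figure D3:**
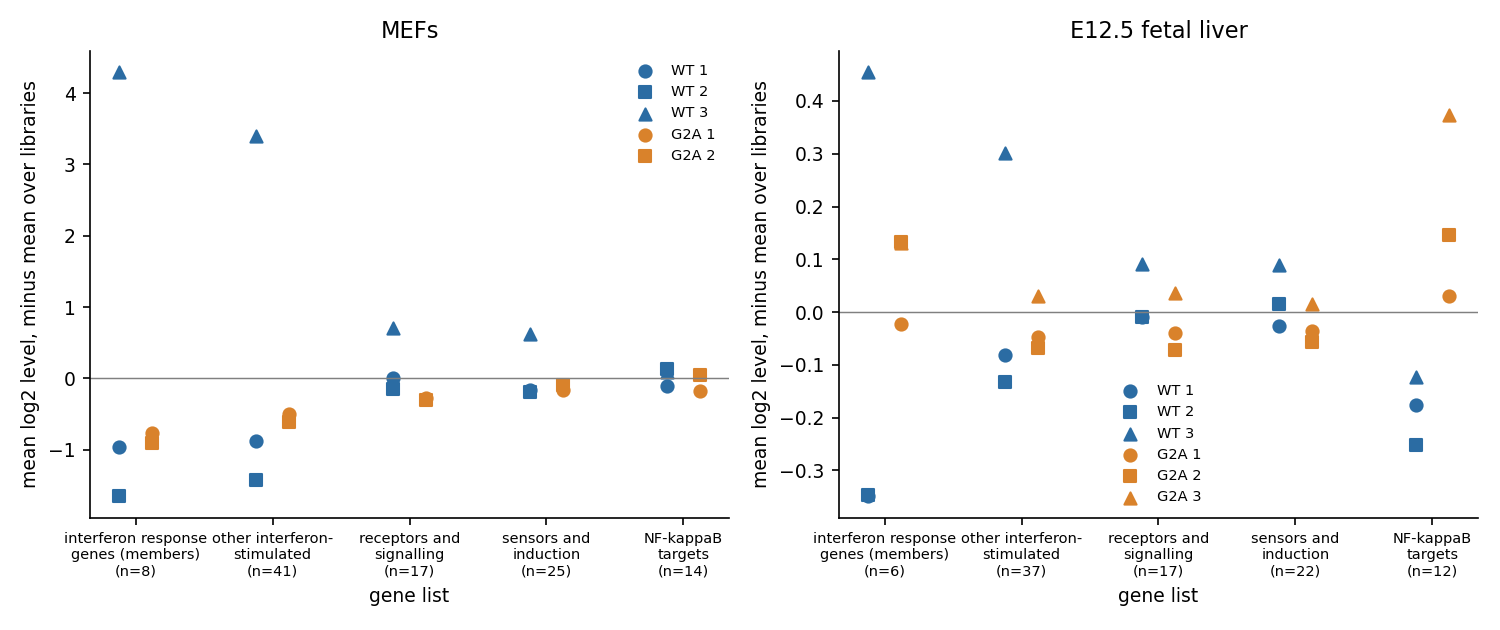
Mean log2 level of each gene list in each library, minus its mean over the libraries of that tissue, for MEFs on the left and E12.5 liver on the right (the vertical scales differ); n is the number of genes tested. In MEFs the members reach 4.29 and the other interferon-stimulated genes 3.40 in WT 3; in liver WT 3 is also highest for both lists, at 0.46 and 0.30, and the NF-kappaB targets are higher in all 3 G2A libraries.

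Markers of other cells were read beside the WT 3 pattern in MEFs. The macrophage genes Adgre1, C1qa and Spi1 were at 0 to 2.06 normalized reads in every MEF library. Cd68 held 416 in WT 3 and 93.8 to 181 elsewhere, Cd14 308 and 111 to 264, and Fcgr1 12.2 and 0 to 0.986, while Csf1r was highest in G2A, at 81.8 and 65.7 against 46.1 in WT 3. Of 19 macrophage markers measured, 2 were at 0 in every library, and the summed level was 806 in WT 3, 230 and 282 in WT 1 and WT 2, and 546 and 462 in G2A. Summed markers of plasmacytoid dendritic and lymphoid cells were 21.6 in WT 3 and 1.96 to 5.22 elsewhere, with 4 of 10 at 0 throughout. Summed fibroblast markers were 724884 in WT 3, 1290194 and 1052225 in WT 1 and WT 2, and 522977 and 520263 in G2A. Dlk1, listed as a hepatoblast marker, held 32015 in WT 3 and 210 to 7643 elsewhere, while Afp was at 0 to 3.94. Alb held 305 and 330 in WT 1 and WT 2 and 275 in G2A 1, and was at 0 in WT 3 and G2A 2, as were Ttr and Fgb. The part of these differences in the interferon pattern was not tested. In bulk RNA, a change in the share of cells and a change in RNA per cell cannot be told apart.

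In fetal liver the 8 genes measured were under 10 FPKM in every library, except Cxcl10 in G2A and Isg15 in WT 3, and Cxcl10 had the largest log2 fold change of the 6 tested. Cxcl10 was at 8.04, 7.24 and 9.13 FPKM in WT 1 to 3, and at 16.8, 25.5 and 27.2 in G2A 1 to 3. Every G2A liver was above every WT liver. The mean was 8.14 ± 0.948 in WT and 23.2 ± 5.59 in G2A (SD, n = 3 each), a 2.85-fold ratio. The log2 fold change was 1.38 (SE 0.19, 95% interval 0.93 to 1.84), with an adjusted p of 0.0902 in limma, so Cxcl10 did not pass. It passed without G2A 1 (1.59, adjusted p = 0.0374), and without G2A 3 (1.26, adjusted p = 0.0136), a fit in which 24.4% of all genes passed. Its adjusted p ran from 0.0136 to 0.309 over the 13 alternatives tried, and its log2 fold change from 1.26 to 1.59.

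Of the 6 genes tested in liver, 0 passed with all 6 libraries, against 3 of 12938 genes (0.0232%), and 0 passed without WT 3, against 0.0309%. At an unadjusted p under 0.05 limma had Cxcl10, beside 1173 genes higher and 1598 lower; Rsad2 also had such a p, but it entered the test only through its G2A libraries, so it is not counted. Leaving out Rsad2 for the same reason, G2A livers lay wholly above WT for 1 member, Cxcl10, and wholly below for 1, Irf7, beside 11.8% of all genes higher and 15.7% lower. The filter asked for 1 FPKM in 3 libraries. Ifit1 and Ifit3 were under 1 FPKM in every liver and were not tested. Ifit1 was at 0.169, 0.187 and 0.691 FPKM in WT, and 0.535, 0.743 and 0.801 in G2A; WT 3 lay among the G2A livers. Ifit3 was at 0.294, 0.159 and 0.388 in WT, and 0.253, 0.748 and 0.527 in G2A, and the groups overlapped.

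Ifit2 was at 2.68, 2.86 and 2.62 FPKM in WT, and 3.43, 3.43 and 2.57 in G2A (log2 fold change 0.15, adjusted p = 0.484 in limma). G2A 3 was the lowest of all 6 livers, the other G2A livers the highest. Rsad2 was at 0.638, 0.350 and 0.972 FPKM in WT, and 1.11, 1.25 and 1.12 in G2A. It passed the filter through its G2A libraries alone, so its higher G2A level (0.40, adjusted p = 0.224) is partly set by the filter. Oasl2 was at 1.88, 1.999 and 3.40 FPKM in WT, and 2.18, 3.07 and 2.60 in G2A, with WT 3 highest and overlapping groups (0.10, adjusted p = 0.79; the sign turned under quantile normalization and without WT 1).

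**Figure D4:**
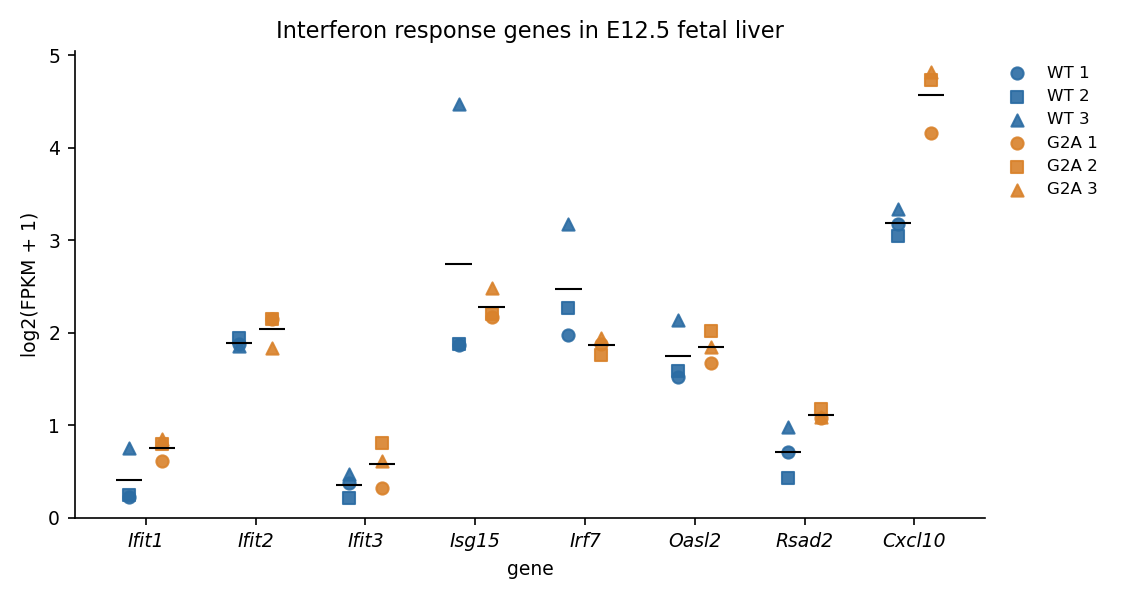
Level of the 8 genes measured in liver in each of the 6 E12.5 libraries, as log2(FPKM + 1) on the vertical axis; each point is 1 library and each horizontal tick the group mean of the log2 values. Cxcl10 is higher in all 3 G2A livers, and Isg15 and Irf7 are highest in WT 3, at 21.2 and 8.04 FPKM.

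Isg15 and Irf7 in liver were marked by 1 WT library. Isg15 was at 2.65, 2.68 and 21.2 FPKM in WT, and 3.49, 3.59 and 4.602 in G2A. WT 3 was 4.61 times the next highest liver, and all 3 G2A livers were above WT 1 and WT 2. The log2 fold change was -0.46 with all libraries (adjusted p = 0.726 in limma), and turned to 0.41 without WT 3 (adjusted p = 0.376). Irf7 was at 2.94, 3.81 and 8.04 FPKM in WT, and 2.69, 2.39 and 2.85 in G2A. All 3 G2A livers were below all 3 WT livers, and WT 3 was 2.11 times the next highest (-0.61, adjusted p = 0.295; -0.26 and 0.492 without WT 3). Ifi27 has no liver entry under its own symbol. RefSeq gives Ifi27l1 as an older symbol of Ifi27, and the liver entry Ifi27l1 was at 7.49, 7.48 and 23.8 FPKM in WT, and 7.45, 6.09 and 5.50 in G2A. Here too WT 3 was highest, at 3.18 times the next liver, whereas WT 3 lay beside WT 1 for Ifi27 in MEFs.

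By a fold of 1.5 over the next highest liver, again chosen after the values were seen, WT 3 stood out for 20 of 12938 genes (0.155%), a number within the 6 to 140 genes of the other 5 livers. The 20 held the members Isg15 and Irf7 and 6 genes of the pathway lists, namely Ifi27l1, Bst2, Ifi27l2a, Rtp4, Ifih1 and Usp18. Bst2 was at 26.6, 28.1 and 50.2 FPKM in WT, and 27.6, 29.6 and 29.7 in G2A. WT 3 was the highest liver for 19 of 37 other interferon-stimulated genes and 3 of 6 members, beside 12.7% of all 12938 genes; it was also highest for 9 of 10 erythroid and 7 of 14 macrophage markers. Its summed macrophage markers were 265 FPKM against 196 to 234 in the other livers, and its summed lymphoid and plasmacytoid dendritic markers 2.51 against 1.37 to 5.51. The part of these markers in the result was not tested.

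The ligands and the other pathway genes were read in liver as well. Of 19 ligand genes 16 were listed at 0 in every liver, and the highest value of any was 0.125 FPKM. None of the receptor, sensor and interferon-stimulated lists had a gene past the threshold, with median log2 fold changes of -0.02 (17 genes), 0.00 (22 genes) and -0.06 (37 genes), against 0.01 over all genes tested. Irf9 was at 11.3, 12.8 and 17.3 FPKM in WT, and 9.72, 9.51 and 10.5 in G2A (-0.42, adjusted p = 0.187 in limma; -0.26 and 0.382 without WT 3). Tyk2, the receptor kinase, was at 4.89, 5.81 and 5.56 in WT, and 6.27, 6.20 and 6.33 in G2A (0.18, adjusted p = 0.278). The 2 groups did not overlap for either gene.

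The sensor list in liver included 2 subunits of ribonuclease H2. Rnaseh2b was at 68.4, 67.9 and 65.3 FPKM in WT, and 49.8, 51.0 and 58.4 in G2A (-0.34, adjusted p = 0.105 in limma). Rnaseh2a was at 37.6, 42.3 and 39.0 in WT, and 33.0, 31.5 and 32.9 in G2A (-0.28, adjusted p = 0.111). Rnaseh2a was thus below WT in every G2A liver and above WT in both G2A MEF libraries, and neither difference passed with all libraries. Among the other interferon-stimulated genes, Ifi35 was at 19.8, 20.2 and 24.7 FPKM in WT, and 12.3, 9.95 and 18.9 in G2A (-0.65, adjusted p = 0.173). Slfn2, of the Schlafen family, was at 3.33, 2.38 and 3.10 in WT, and 4.11, 4.56 and 3.64 in G2A (0.38, adjusted p = 0.176).

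NF-kappaB target genes were also read in liver. NF-kappaB activity was not measured, and its part in the Cxcl10 difference was not tested. Of 12 tested, 11 had a log2 fold change above 0, beside 6815 of all 12938 genes, with a median of 0.30 against 0.01. None passed in limma, and 4 were higher at an unadjusted p under 0.05, beside the 1173 of all genes given above. Ccl2, a chemokine for monocytes, was at 2.24, 0.662 and 0.771 FPKM in WT, and 3.48, 2.91 and 3.83 in G2A (1.05, adjusted p = 0.124 in limma). Icam1, an adhesion molecule, was at 6.27, 5.82 and 6.88 in WT, and 7.23, 8.15 and 8.68 in G2A (0.30, adjusted p = 0.164). Every G2A liver was above every WT liver for both. Among WT livers only WT 1 reached 1 FPKM of Ccl2, so Ccl2 entered the test only with its G2A livers. The filter thus partly set its higher G2A level, and Ccl2 is among the 11 and the 4 genes counted above.

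The genes nearest to the Cxcl10 profile over the 6 livers were Fabp4, Creld2 and H2-Ab1, at distances of 0.24 to 0.26 log2 units, where the Cxcl10 profile spanned 1.78. H2-Ab1, an MHC class II chain, was at 1.13, 1.32 and 1.58 FPKM in WT, and 3.49, 3.89 and 3.82 in G2A. Creld2, an ER stress gene, was at 32.3, 39.5 and 35.0 in WT, and 79.8, 113 and 82.1 in G2A. Fabp4, a fatty acid carrier of adipocytes, endothelium and macrophages, was at 14.2, 14.1 and 15.8 in WT, and 20.6, 35.3 and 32.4 in G2A.

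In liver, summed fibroblast and endothelial markers lay apart between genotypes, while the sums of the other marker lists overlapped. No marker tested passed the threshold with all libraries. Summed fibroblast markers were 973, 732 and 986 FPKM in WT, and 1972, 2758 and 1408 in G2A. Of these, 11 of 12 genes had a log2 fold change above 0 (median 1.08), beside 6815 of all 12938 genes. Summed endothelial markers were 176, 161 and 166 in WT, and 181, 185 and 178 in G2A, with 8 of 10 genes above 0. Summed epithelial markers were 94.3, 83.2 and 105 in WT, and 169, 309 and 102 in G2A. Summed erythroid markers were 2903, 2362 and 3338 in WT, and 1869, 1623 and 3043 in G2A. Summed macrophage markers, at 231, 196 and 265 in WT, and 234, 209 and 223 in G2A, overlapped between genotypes. The part of these markers in the Cxcl10 difference was not tested.

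The G2A effect was compared between MEFs and liver for the 5 members tested in both: Cxcl10, Ifit2, Irf7, Isg15 and Oasl2. The MEF log2 fold change minus that of liver was -1.65 for Cxcl10, -0.38 for Ifit2, -1.73 for Irf7, -1.89 for Isg15 and -1.02 for Oasl2. None of the 5 passed (adjusted p from 0.561 to 0.899), against 239 of 10818 genes (2.21%). Without MEF WT 3 the difference for Cxcl10 was -0.08 (SE 0.55, adjusted p = 0.924), from 1.30 in MEFs and 1.38 in liver. The other 4 did not pass either (adjusted p from 0.109 to 0.852), in a fit where 30.1% of all genes did.

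WT 3 was also compared between the tissues, although the labels do not tie MEF and liver samples to each other; in liver it was the highest library for 3 of the 6 members tested. Its log2 level minus the mean of WT 1 and WT 2 was above 0 in both tissues for 32 of the 36 members and other interferon-stimulated genes tested in both, with medians of 0.49 in liver and 3.88 in MEFs. With the receptor and sensor lists added it was above 0 in both for 50 of 74 genes (medians 0.17 and 1.76), and over all genes for 1947 of 10818 (medians -0.029 and -0.035). Across those 36 genes Pearson's r was 0.34 and Spearman's rho 0.46; across all 10818 genes they were 0.04 and -0.05. These are correlations across genes in 2 single libraries, each set against the same 2 WT libraries of its tissue, and genes are not independent replicates. Iigp1, Cmpk2 and Ifi27l2a, at 7.47, 8.86 and 5.71 log2 units in MEFs, passed the MEF filter only with WT 3. Parp14 passed the liver filter only with WT 3. The filter thus partly set these counts, medians and correlations. The excess was 11.9 log2 units in MEFs and 0.58 in liver for Oasl2, and 6.32 and 2.60 for Isg15. For Cxcl10 it was 4.71 in MEFs and 0.23 in liver, and the liver Cxcl10 log2 fold change of G2A over WT was 1.46 without that library (adjusted p = 0.309 in limma).

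**Figure D5:**
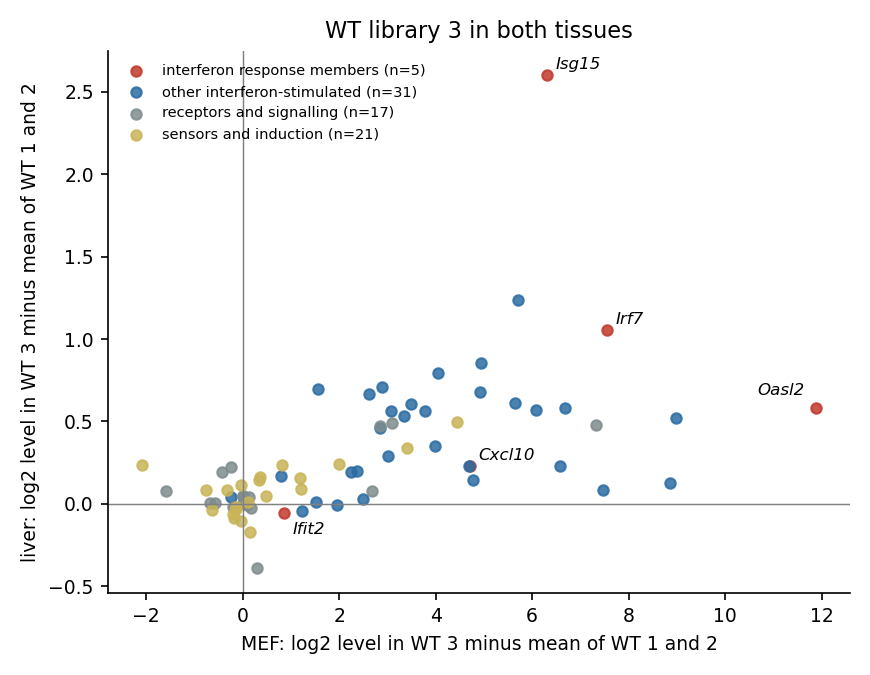
Log2 level in WT 3 minus the mean log2 level of WT 1 and WT 2, in MEFs on the horizontal axis and in E12.5 liver on the vertical axis; each point is 1 gene of the interferon lists tested in both tissues. Isg15 and Irf7 lie high on both axes, Oasl2 lies farthest to the right, and Ifit2 lies at 0.87 in MEFs and near 0 in liver, at -0.06.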

How the data were processed

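RNA of 11 mouse libraries was analysed, 6 from E12.5 livers and 5 from MEFs; columns were matched to samples by tissue, genotype and number in their names. Per the labels' protocols, RNA came from a Trizol extraction, and TopHat aligned reads of 50 bp, after trimming, to mm9. Cufflinks 2.2.1 and TopHat2 2.1.1 are listed in the submitters' processing notes, with mm9 and mm10. The deposited liver values are FPKM, a unit inferred from Cufflinks and from the non-whole values, since the header gives none. The deposited MEF values are a normalized signal per gene: 100% of them were whole reads, within 0.01, after multiplying by 1 size factor per library (0.958 to 1.06). The annotation, counting tool, size factor source and use of strand were not stated in these sources, so reads of overlapping, antisense or near-identical genes are uncertain.

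Log2(value + 1) was fitted on genotype within each tissue with limma 3.58.1 in R 4.3.3 (variance trend), with Benjamini-Hochberg adjustment over all genes tested and a threshold of 0.05. Liver genes needed at least 1 FPKM in 3 libraries (12938 genes), MEF genes at least 10 normalized reads in 2 (13241 genes). The pseudocount understates changes of low genes. edgeR 4.0.16 on the recovered MEF reads (quasi-likelihood, TMM) was an alternative, as were a pseudocount of 0.1, no or a stricter filter, median-of-ratios scaling, quantile normalization, no trend, the sample number as block, and leaving out each library. Effects in both tissues were compared over 10818 genes by dividing the difference of log2 fold changes by the standard error from both fits (Satterthwaite degrees of freedom). The limma and edgeR steps were tested on simulated data with the same spread in every library. That check does not cover an outlying library such as MEF WT 3.

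The members and lists were chosen with earlier results of these data known. Lists were interferon ligands, receptors and signalling, sensors and induction, other interferon-stimulated genes, NF-kappaB targets, and markers of macrophages, plasmacytoid dendritic and lymphoid cells, endothelium, erythroid cells, hepatoblasts, fibroblasts and epithelium. Named genes were all members; per pathway list and tissue up to 4 genes past the threshold, or else the 2 with the smallest p; the 5 genes nearest to the members' mean profile where it spanned over 1 log2 unit (in liver it spanned 0.80, so none); and the 3 nearest to the member with the largest absolute log2 fold change. Isg15 was that member in MEFs and Cxcl10 in liver. Other genes were named after their values were seen. In liver, summed endothelial markers were 161 to 185 FPKM and summed hepatoblast markers 9235 to 13084; in MEFs, summed endothelial markers were 553 to 2318, erythroid 3530 to 4947 and epithelial 1363 to 3495 normalized reads.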

Additional observations from a re-analysis of the deposited data

How the results depend on the processing

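Counts of members past the threshold were 0 in both tissues under a pseudocount of 0.1, no filter, a stricter filter (1 member tested in liver, 6 in MEFs), median-of-ratios scaling, quantile normalization, no variance trend and, in MEFs, edgeR. Leaving out 1 library gave 0 to 1 members in liver (1, Cxcl10, without G2A 1 and without G2A 3) and 0 to 1 in MEFs (1, Ifi27, without WT 3). The counts over all genes moved with single libraries: 2 to 3152 in liver, from 3 with all libraries (8 without G2A 1, 6 without G2A 2, 3152 without G2A 3), and 0 to 3075 in MEFs (3075 without WT 3). Without G2A 3 the liver lists had 5 sensors, 2 other interferon-stimulated genes and 1 NF-kappaB target past the threshold; without MEF WT 3 the MEF lists had 6 sensors, 9 other interferon-stimulated genes, 5 NF-kappaB targets and 4 receptor and signalling genes. The cause was not tested.

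Signs that turned were those of Isg15 in liver (0.41 without WT 3; -0.89 to 0.41 over single libraries left out), Oasl2 in liver (-0.023 under quantile normalization; -0.014, without WT 1, to 0.29 over single libraries left out) and Oasl2 in MEFs (0.17 with a pseudocount of 0.1). Leaving out single MEF libraries gave -2.58 to 0.78 for Ifit1, -0.51 to 0.061 for Ifit2, -2.90 to 0.83 for Ifit3, -3.71 to 0.17 for Irf7, -3.75 to 3.04 for Oasl2 and -1.44 to 1.30 for Cxcl10; each highest value, and the turned sign, came without WT 3.

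With the sample number as replicate block, these 6 MEF values were the same (0.78, 0.061, 0.83, 0.17, 3.04 and 1.30), since WT 3 has no G2A library of its number and takes no part in that contrast. The block fit in limma called 3 MEF members, beside 3707 of 13241 genes. Ifit1 (adjusted p = 0.0385) and Oasl2 (0.0376) were higher in G2A, and Ifi27 (9.94e-05) was lower. Among the libraries of that contrast, Oasl2 reached the minimum of the filter only in G2A, so the filter partly set its call. The block fit also called 1 member in the difference between tissues, and in liver 0 members and 2 genes. Deviations of same-numbered libraries correlated at 0.18, -0.10 and 0.10 in liver and at 0.13 and -0.03 in MEFs, so the numbers were not taken to pair the samples. Read depth is unknown in liver, where Ifit1, Ifit3 and Rsad2 lay near or under 1 FPKM; in MEFs 4 libraries had 0 reads of Rsad2.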

Other observations

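Of the 71 genes over 8 times higher in MEF WT 3 than in any other MEF library, 37 were outside the members and pathway lists; those named here were chosen after their values were seen. H2-K1, an MHC class I heavy chain, held 3092 normalized reads in WT 3 and at most 373 elsewhere, and Tap1, a peptide transporter, 1909 and at most 109. Uba7, the enzyme that activates Isg15, held 1466 and at most 104. Among the rest, the imprinted RNA H19 held 38900.1 in WT 3 and at most 2487 elsewhere, Clu (clusterin) 7921 and at most 587, Apod (apolipoprotein D) 6705 and at most 236, and the matrix proteoglycan Dcn 4413 and at most 315.

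In liver WT 3, 12 of the 20 genes over 1.5 times the next highest liver were outside the members and pathway lists. Apoa4, a lipoprotein gene, was at 4.40 FPKM there and at most 1.82 elsewhere, Hbq1a, a globin gene, at 3.05 and at most 1.17, and Cd5l, a macrophage protein, at 19.6 and at most 12.8.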
